A study of Mus musculus with 3 samples.

Results

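Pituitary cells of a TpitHT mouse library were compared with those of a TpitWT library, cluster by cluster, by single-cell RNA sequencing. A cluster was compared where both libraries held at least 50 of its cells, which was so for 15 of the 21 clusters in the deposited cell table. The compared clusters held 11041 of 11222 WT cells and 12706 of 12839 HT cells, out of 37474 cells in the whole series. Clusters 5, 16, 17, 18, 19 and 20 were left out, with 2 to 72 cells per library. Both libraries came from freshly dissected, trypsin-digested pituitaries sorted with propidium iodide to remove dead cells, and were made with Chromium 3′ v3 reagents. Genotype is the difference the labels give between the libraries. The labels do not spell out HT, and they state neither how the Tpit allele was made, nor the age, strain or number of the mice. HT is read here as carrying a single working Tpit allele, which the labels do not say. Each genotype was a single library, so the spread between animals is unknown and nothing was tested. Every interval below is a 95% interval for counting error only. It is too narrow, because counts come clustered in cells. The clusters share the same pair of libraries and are not replicates of the genotypes.

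Tpit, encoded by Tbx19, is a T-box transcription factor of the pituitary cells that make pro-opiomelanocortin, the product of Pomc. Corticotropes of the anterior lobe cleave this prohormone to ACTH, which drives adrenal glucocorticoid output. Melanotropes of the intermediate lobe cleave it further to melanocyte-stimulating hormone, and are set apart from corticotropes by the factor Pax7. Growth hormone, prolactin and thyrotropin are made by cells that depend on Pit1 (Pou1f1), and the gonadotropins by cells that depend on Nr5a1.

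Clusters were named by marker genes. Clusters 0, 4 and 12 were lactotrope-like, 1 and 2 somatotrope-like, 3 gonadotrope-like, 6 corticotrope-like, 7 melanotrope-like, 14 thyrotrope-like, 10 stem cell-like, 9 endothelial-like, 8 macrophage-like and 15 fibroblast-like. Cluster 11 was led by Cck, Klk1 and Cdkn1c and raised 3 of 8 corticotrope markers, and cluster 13 was led by Nefl, Selenbp1 and Nppc and raised 3 of 8 gonadotrope markers. Neither was given a cell type name. Per cluster the summed counts ran from 287752 to 29933694 in WT and from 506714 to 50764839 in HT. Mean counts per cell were higher in HT in all 15 clusters, by 1.01 to 1.41 times. Mitochondrial genes took 1.13% to 2.94% of counts in WT clusters and 1.10% to 2.79% in HT clusters. Xist, made from an inactive X chromosome, had 14 counts in WT and 19 in HT, while the Y-linked Ddx3y had 7333 and 9659. The libraries shared 36 cell barcodes.

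Tbx19 was detected mainly in clusters 6, 7 and 11, and HT was lower than WT only in cluster 6 by more than the counting error. In cluster 6 the level was 142 CPM, counts scaled to a fixed total per cluster and library (95% interval 134 to 150), in WT and 99.3 (93.1 to 106) in HT, a ratio of 0.700 (0.641 to 0.764). In cluster 7 it was 106 (98.1 to 115) in WT and 97.6 (91.0 to 104.5) in HT, a ratio of 0.920 (0.829 to 1.021). Cluster 11 had 61.1 and 76.2 CPM from 20 and 62 counts, a ratio of 1.246 (0.743 to 2.18). Taken per cell rather than as CPM, where HT cells were deeper, the log2 ratio was -0.19 in cluster 6 and 0.33 in cluster 7. The share of cells with a Tbx19 count was 52.5% in WT and 47.3% in HT in cluster 6, and 47.4% and 54.1% in cluster 7. In the 12 other clusters Tbx19 had 0 to 26 counts per library, at most 13.9 CPM. How the allele alters Tbx19 is not labelled, so 3′ counts of Tbx19 need not follow the number of working alleles. A row named LacZp, which the sources used here do not describe, separated the libraries. It had 0 counts in all WT cells, which allows up to 0.0280 CPM, and 175 counts in HT. Of these, 92 fell in cluster 6, 74 in cluster 7, 7 in cluster 11 and 2 in cluster 2.

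Pomc was not lower in HT in the cells that make it. WT and HT had 130530 and 150380 CPM in cluster 6, a ratio of 1.15. In cluster 7 they had 195850 and 223310 CPM, a ratio of 1.14. In cluster 11 the level was 19954 CPM in WT and 33462 in HT, 1.68 times as high (1.63 to 1.72). Pomc counts were also found in 90.8% or more of the cells of each compared cluster in each library, at levels of 405 to 3212 CPM in the WT library outside clusters 6, 7, 11 and 15. Gh and Prl counts were found in every cell of every compared cluster. A low level of a hormone gene in another cell type is therefore given below as a value, and its source was not tested.

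**Figure D1:**
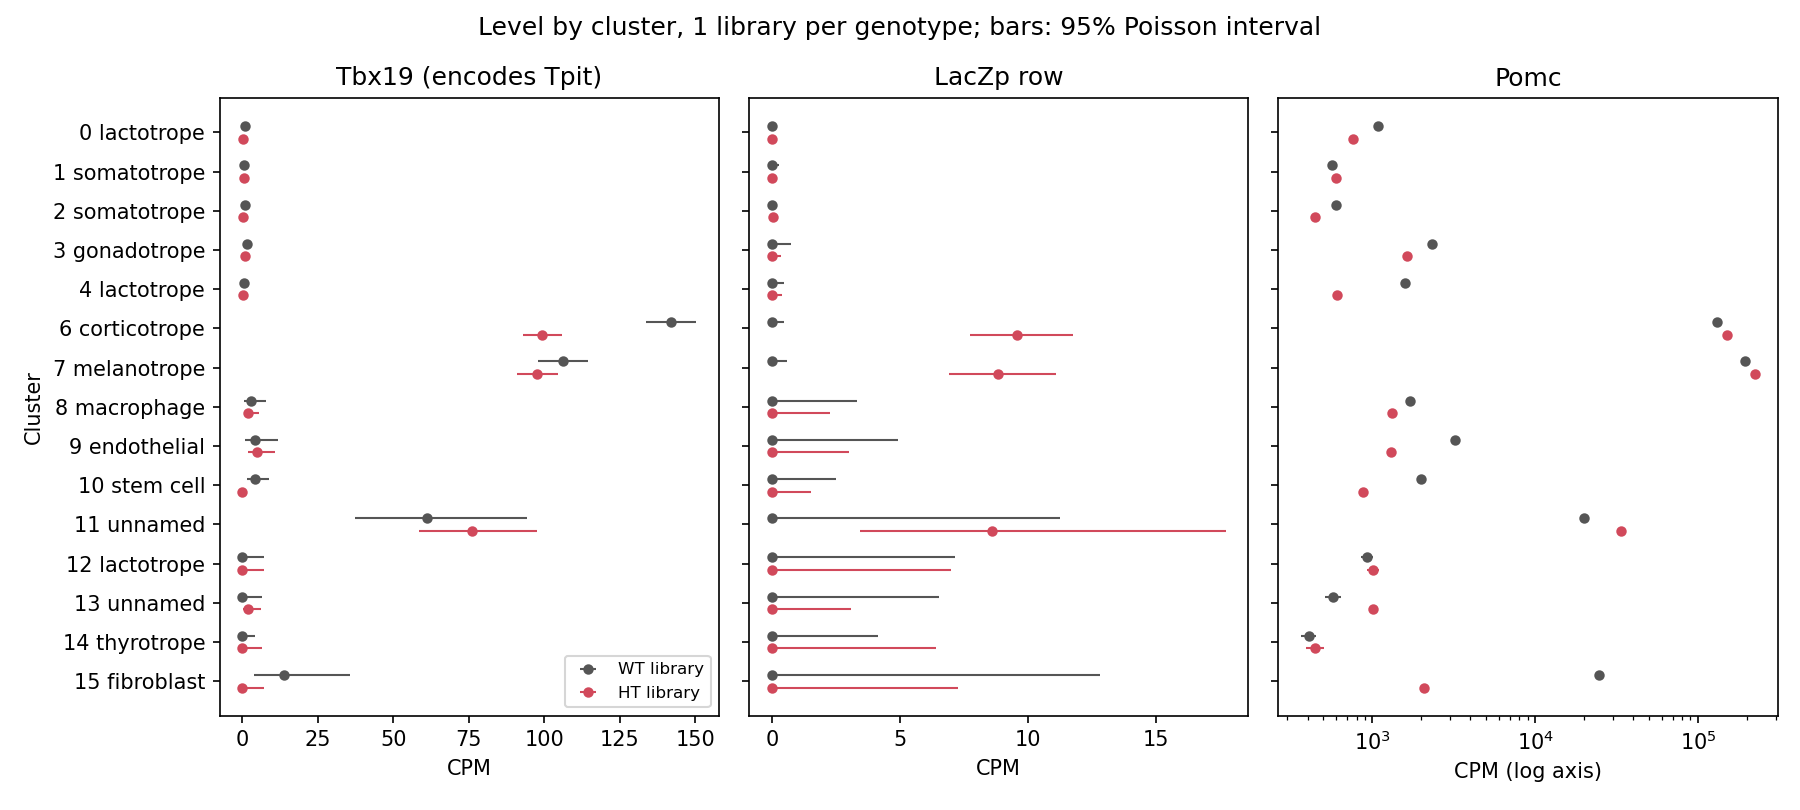
Level in CPM of Tbx19, the LacZp row and Pomc (log axis) in each compared cluster, with WT in grey and HT in red. Points are the single library of each genotype and bars are 95% Poisson intervals; Tbx19 and LacZp stand above the other clusters in clusters 6, 7 and 11, and LacZp is at 0 in WT throughout.

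Both clusters with the highest Pomc levels took a smaller share of the HT library. Cluster 6 held 9.63% of WT cells (9.09% to 10.2%) and 8.08% of HT cells (7.61% to 8.56%), a ratio of 0.838 (0.769 to 0.914). Cluster 7 held 6.51% and 5.70%, a ratio of 0.876 (0.790 to 0.972). Cluster 11 went the other way, with 53 WT and 107 HT cells and a ratio of shares of 1.76 (1.26 to 2.501). Among the other endocrine clusters, the thyrotrope-like cluster 14 had the lowest ratio, 0.499 (0.348 to 0.710), from 91 and 52 cells. The gonadotrope-like cluster 3 was at 1.23 (1.08 to 1.39) and cluster 13 at 1.40 (1.06 to 1.85). The lactotrope-like clusters did not share a direction, with cluster 0 at 1.16 (1.11 to 1.22), cluster 4 at 0.868 (0.773 to 0.975) and cluster 12 at 0.844 (0.616 to 1.15). The somatotrope-like clusters 1 and 2 were at 0.917 (0.856 to 0.982) and 0.879 (0.827 to 0.934). Outside the endocrine cells the fibroblast-like cluster 15 was at 1.52 (1.09 to 2.14) and the stem cell-like cluster 10 at 1.19 (1.01 to 1.39), while the intervals for clusters 8 and 9 included 1. Shares sum to a fixed total in each library, so they do not give cell numbers per gland.

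Few genes differed by 2-fold between the libraries in any cluster. The measure was the log2 ratio of HT to WT after adding 10 CPM to each, for genes with at least 50 counts over both libraries and at least 20 CPM in either. Gene list members said to have ratios above or below 0 are counted by this log2 ratio. Over all genes compared, the share above 0 ran from 30.7% in cluster 3 to 65.6% in cluster 4. That share was 37.6%, 40.7%, 51.5% and 60.7% in clusters 6, 7, 8 and 9. In clusters 10, 12, 14 and 15 it was 48.7%, 47.7%, 56.9% and 57.6%. In the 5 large clusters outside the POMC lineage at most 6 genes passed 2-fold. Cluster 0 had 1 of 6135 genes past 2-fold higher in HT (0.0163%) and 2 lower (0.0326%). Cluster 1 had 4 of 2796 higher (0.143%) and 2 lower (0.0715%), and cluster 2 had 2 of 4460 higher (0.0448%) and 3 lower (0.0673%). Cluster 3 had 2 of 6435 higher (0.0311%) and 3 lower (0.0466%), and cluster 4 had 2 of 4132 each way (0.0484% higher and 0.0484% lower). The corticotrope-like cluster 6 had 20 of 6630 genes higher (0.302%) and 13 lower (0.196%), and the melanotrope-like cluster 7 had 21 of 6544 higher (0.321%) and 11 lower (0.168%). Over these 7 clusters the median number of counts per gene compared was 227 to 2288 per library. Clusters 6 and 7 lay at 273 to 431, close to clusters 3 and 4 at 227 to 420. With totals that left out hormone, mitochondrial and hemoglobin genes, clusters 0 to 4 had 3, 16, 13, 6 and 10 genes past 2-fold. Clusters 6 and 7 then had 40 and 39.

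The other 8 clusters were smaller, with medians of 29 to 109 counts per gene, and so their counts of genes past 2-fold hold more counting error. Cluster 8 had 15 of 5597 genes higher (0.268%) and 14 lower (0.25%). Cluster 9 had 64 of 5774 higher (1.11%) and 57 lower (0.987%). Cluster 10 had 10 of 7521 higher (0.133%) and 9 lower (0.12%). Cluster 11 had 48 of 3879 higher (1.24%) and 39 lower (1.01%). Cluster 12 had 14 of 1541 higher (0.909%) and 25 lower (1.62%). Cluster 13 had 18 of 5325 higher (0.338%) and 30 lower (0.563%). Cluster 14 had 19 of 4204 higher (0.452%) and 32 lower (0.761%). Cluster 15 had 50 of 2733 higher (1.83%) and 34 lower (1.24%). Across clusters 470 genes were past 2-fold at least once, and 413 of them in exactly 1 cluster.

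The balance of higher and lower genes depended on how the libraries were scaled. Scaling by trimmed means (TMM) moved cluster 6 from 20 higher and 13 lower to 30 and 8, cluster 7 to 27 and 7, cluster 8 to 20 and 8, cluster 10 to 11 and 5, cluster 11 to 63 and 30, cluster 12 to 17 and 18, and cluster 13 to 29 and 17. It moved cluster 3 to 3 and 2 and cluster 14 to 13 and 45. Setting the median ratio to 1 gave 28 and 10 in cluster 6, 42 and 74 in cluster 9, and 14 and 40 in cluster 14. Leaving hormone, mitochondrial and hemoglobin genes out of the totals gave 9 and 7 in cluster 1, 3 and 10 in cluster 2, 3 and 7 in cluster 4, 44 and 86 in cluster 9, and 15 and 55 in cluster 14. The authors' scaled counts gave 7 and 11 in cluster 1, 3 and 10 in cluster 2, 2 and 8 in cluster 4, 51 and 85 in cluster 9, 25 and 23 in cluster 12, and 10 and 58 in cluster 14. Clusters 6 and 7 thus had more genes higher than lower under each of these scalings, and in cluster 9 the side with more genes turned. The balance in clusters 6 and 7 turned with the CPM added, to 37 higher and 51 lower in cluster 6 with 1 CPM and to 0 and 4 in cluster 7 with 50 CPM. The scalings shifted the median log2 ratio of all genes by -0.14 to 0.13.

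**Figure D2:**
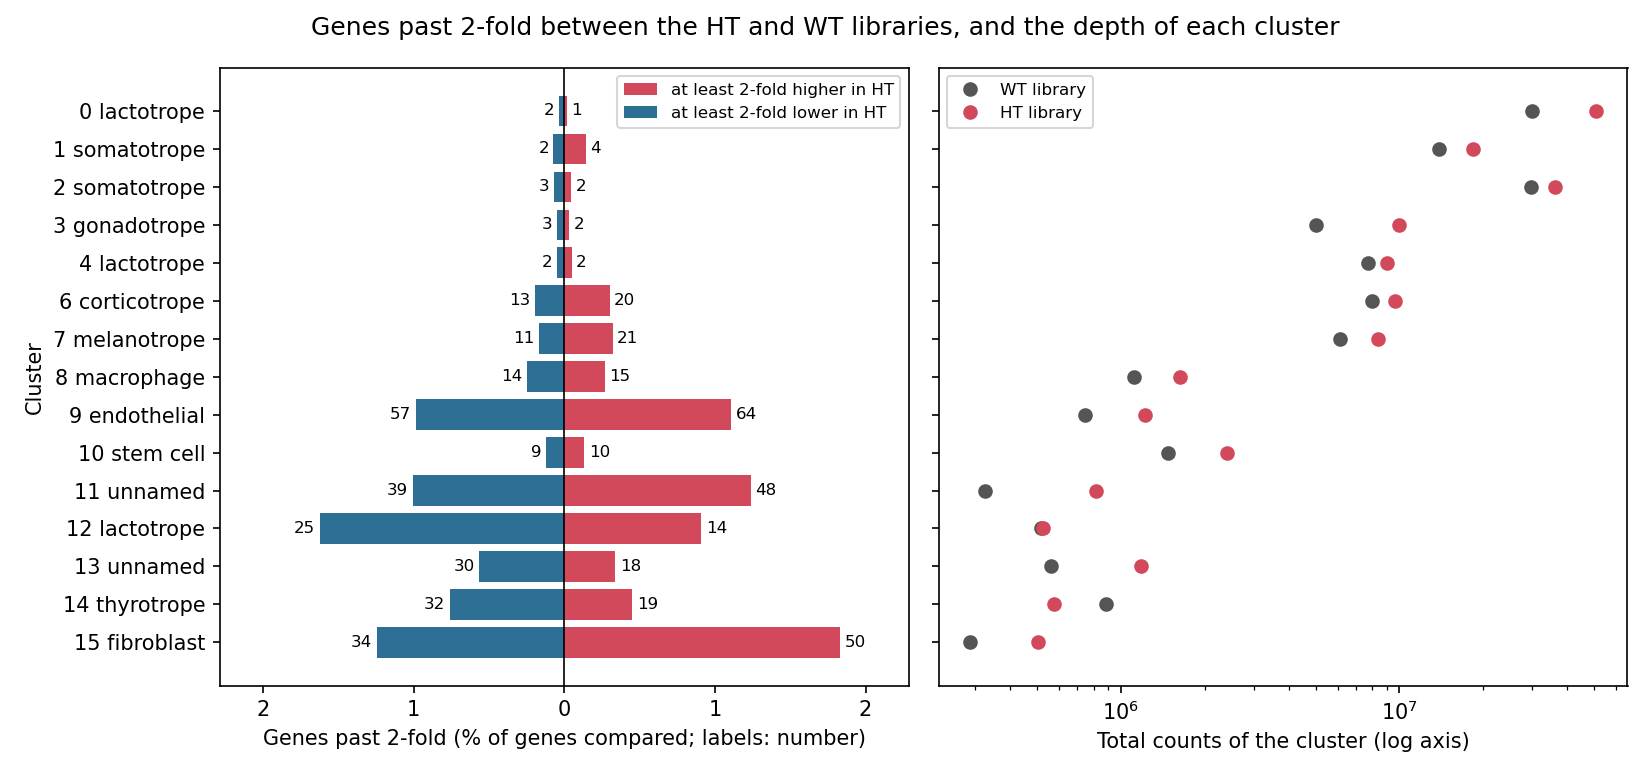
Left, genes at least 2-fold higher (red) or lower (blue) in HT as a percent of genes compared in each cluster, with their number beside each bar; right, summed counts of each cluster per library (log axis). Clusters 6 and 7 have 33 and 32 genes past 2-fold and clusters 0 to 4 have 3 to 6, and the largest percentages are 1.83% higher in cluster 15 and 1.62% lower in cluster 12.

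In the corticotrope-like cluster 6, Chrne, Slitrk6, Rgs4, Srxn1 and Pmvk led the genes higher in HT. Chrne, the epsilon subunit of the muscle nicotinic receptor, had 4.01 CPM in WT and 72.3 in HT, 18.015 times as high (12.6 to 26.5). Its share of cells with a count was 1.94% in WT and 22.2% in HT. Slitrk6, a neuronal transmembrane protein, had 12.3 and 72.1 CPM, 5.87 times as high (4.74 to 7.32). Rgs4 and Rgs2 encode proteins that shorten G-protein signals. Rgs4 had 26.7 CPM in WT and 108.8 in HT, and Rgs2 had 64.5 and 151. Pmvk, the phosphomevalonate kinase of sterol synthesis, had 109 and 338 CPM, 3.09 times as high (2.87 to 3.34). Mvk, the kinase just before it, had 22.95 and 59.3, while Hmgcs1 had a log2 ratio of -0.59. Of 8 members of the cholesterol synthesis list compared, 1 was past 2-fold higher, with a list median of 0.07 beside -0.06 for all genes.

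Also higher in cluster 6 were Cidea, a lipid droplet protein, with 137 CPM in WT and 328 in HT, and C2cd4b, with 305 and 694. Tsc22d3, a gene induced by glucocorticoids, had 26.2 and 82.5 CPM, 3.15 times as high (2.70 to 3.68). It was the 1 gene past 2-fold among 13 members of the glucocorticoid response list compared. In that list 11 members had ratios above 0 and 2 below, with a median of 0.33 beside -0.06 for all genes. The metallothionein Mt2 had 410 CPM in WT and 752 in HT and was short of 2-fold.

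Among the genes lower in HT in cluster 6, Hspb1, a small heat shock protein, had 309 CPM in WT and 98.9 in HT, a ratio of 0.320 (0.297 to 0.345). Its pseudogene Hsp25-ps1 was lower too, and reads may be split between them. C1ql3, a secreted C1q-like protein, had 20.6 and 1.67 CPM, a ratio of 0.0810 (0.0453 to 0.136). Fam89a had 22.4 and 3.13 CPM, and Gpc5, a glypican and a corticotrope marker, had 42.4 and 12.3. Apoe, whose WT level in the macrophage-like cluster 8 was 61248 CPM, had 89.2 CPM in WT and 19.8 in HT here. A cell type marker list for corticotropes had 6 of 8 members below 0 in this cluster, with a median of -0.44 beside -0.06 for all genes, and 1 of them, Gpc5, was past 2-fold. The receptors for the hypothalamic signals that drive ACTH were in that group. Crhr1, for corticotropin-releasing hormone, had 59.8 CPM in WT and 35.5 in HT, a ratio of 0.594 (0.515 to 0.684). Avpr1b, for vasopressin, had 104 and 69.6 CPM, a ratio of 0.667 (0.601 to 0.739). The prohormone convertase Pcsk1, which cuts POMC to ACTH, went the other way, with 126 and 196 CPM, 1.56 times as high (1.45 to 1.69).

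The melanotrope-like cluster 7 kept close levels of its identity factor and differed in other genes. Pax7 had 148 CPM in WT and 145 in HT, a ratio of 0.977 (0.895 to 1.07), and none of 8 melanotrope markers was past 2-fold. Pcsk2, the convertase that completes POMC cleavage in melanotropes, had 850 and 1227 CPM, and Oacyl 438 and 668, both short of 2-fold. Srxn1 had 38.4 CPM in WT and 126 in HT, 3.29 times as high (2.85 to 3.80). Cd24a, a cell surface glycoprotein, had 48.5 and 145 CPM, 2.99 times as high (2.63 to 3.41), and in cluster 6 it had 24.1 and 59.9. Krt18, a keratin of simple epithelia, had 32.9 and 103.5 CPM. Neto2, an auxiliary subunit of kainate receptors, had 17.7 and 56.9, and Kcnmb4os2, a transcript antisense to the potassium channel subunit gene Kcnmb4, had 9.97 and 41.2. Bdnf, a neurotrophin, had 41.0 and 97.0 CPM, and Crem, a cAMP-responsive transcription factor, had 66.4 and 152. Of 13 secretory granule genes compared, 12 had ratios above 0 and 0 were past 2-fold, with a median of 0.22 beside -0.05 for all genes. The metallothionein list, with all 3 members above 0 and 0 past 2-fold, had a median of 0.72.

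Kallikreins were the leading genes lower in HT in cluster 7. These serine protease genes lie in a family of near-identical copies, so reads may be split among them. Klk1 had 91.9 CPM in WT and 9.42 in HT, a ratio of 0.103 (0.0800 to 0.130), and was found in 22.6% and 5.60% of cells. Klk1b16 had 40.5 and 4.29 CPM and Klk1b26 had 26.0 and 2.74. Jun, an immediate early transcription factor, had 963 and 402 CPM, a ratio of 0.418 (0.400 to 0.436). Hspb1 had 531 and 245 CPM, so that it was past 2-fold lower in both cluster 6 and cluster 7. In cluster 11 it had 437 and 558. Prl had 11574 CPM in WT and 3560 in HT in cluster 7, where the summed lactotrope markers were 11814 and 3780 CPM with all 8 detected in each library. Their part in the other differences of this cluster was not tested.

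In cluster 11, which also holds Tbx19 and Pomc, Klk1 lay in the opposite direction. It had 125 CPM in WT and 818 in HT, 6.53 times as high (4.76 to 9.19), from 41 counts in 6 cells and 666 counts in 23 cells. Cck, the precursor of cholecystokinin, had 229 and 619 CPM from 75 counts in 3 cells and 504 counts in 8 cells. Hspa1b had 73.3 and 488 CPM, 6.65 times as high (4.40 to 10.5). The gonadotropin subunit genes were lower in HT. Lhb had 1592 and 394 CPM, a ratio of 0.248 (0.215 to 0.285), and Fshb 862 and 268, a ratio of 0.311 (0.259 to 0.372). A row named AC151602.1 had the same counts as Lhb in this cluster, 521 and 321. The summed gonadotrope markers were 12100 CPM in WT and 8394 in HT, with all 8 detected in each library, while the summed corticotrope markers were 20492 and 33951 CPM. Which cells carried them was not tested. Rgs2, higher in HT in cluster 6, had 235 and 59.0 CPM in cluster 11, a ratio of 0.251 (0.171 to 0.364).

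**Figure D3:**
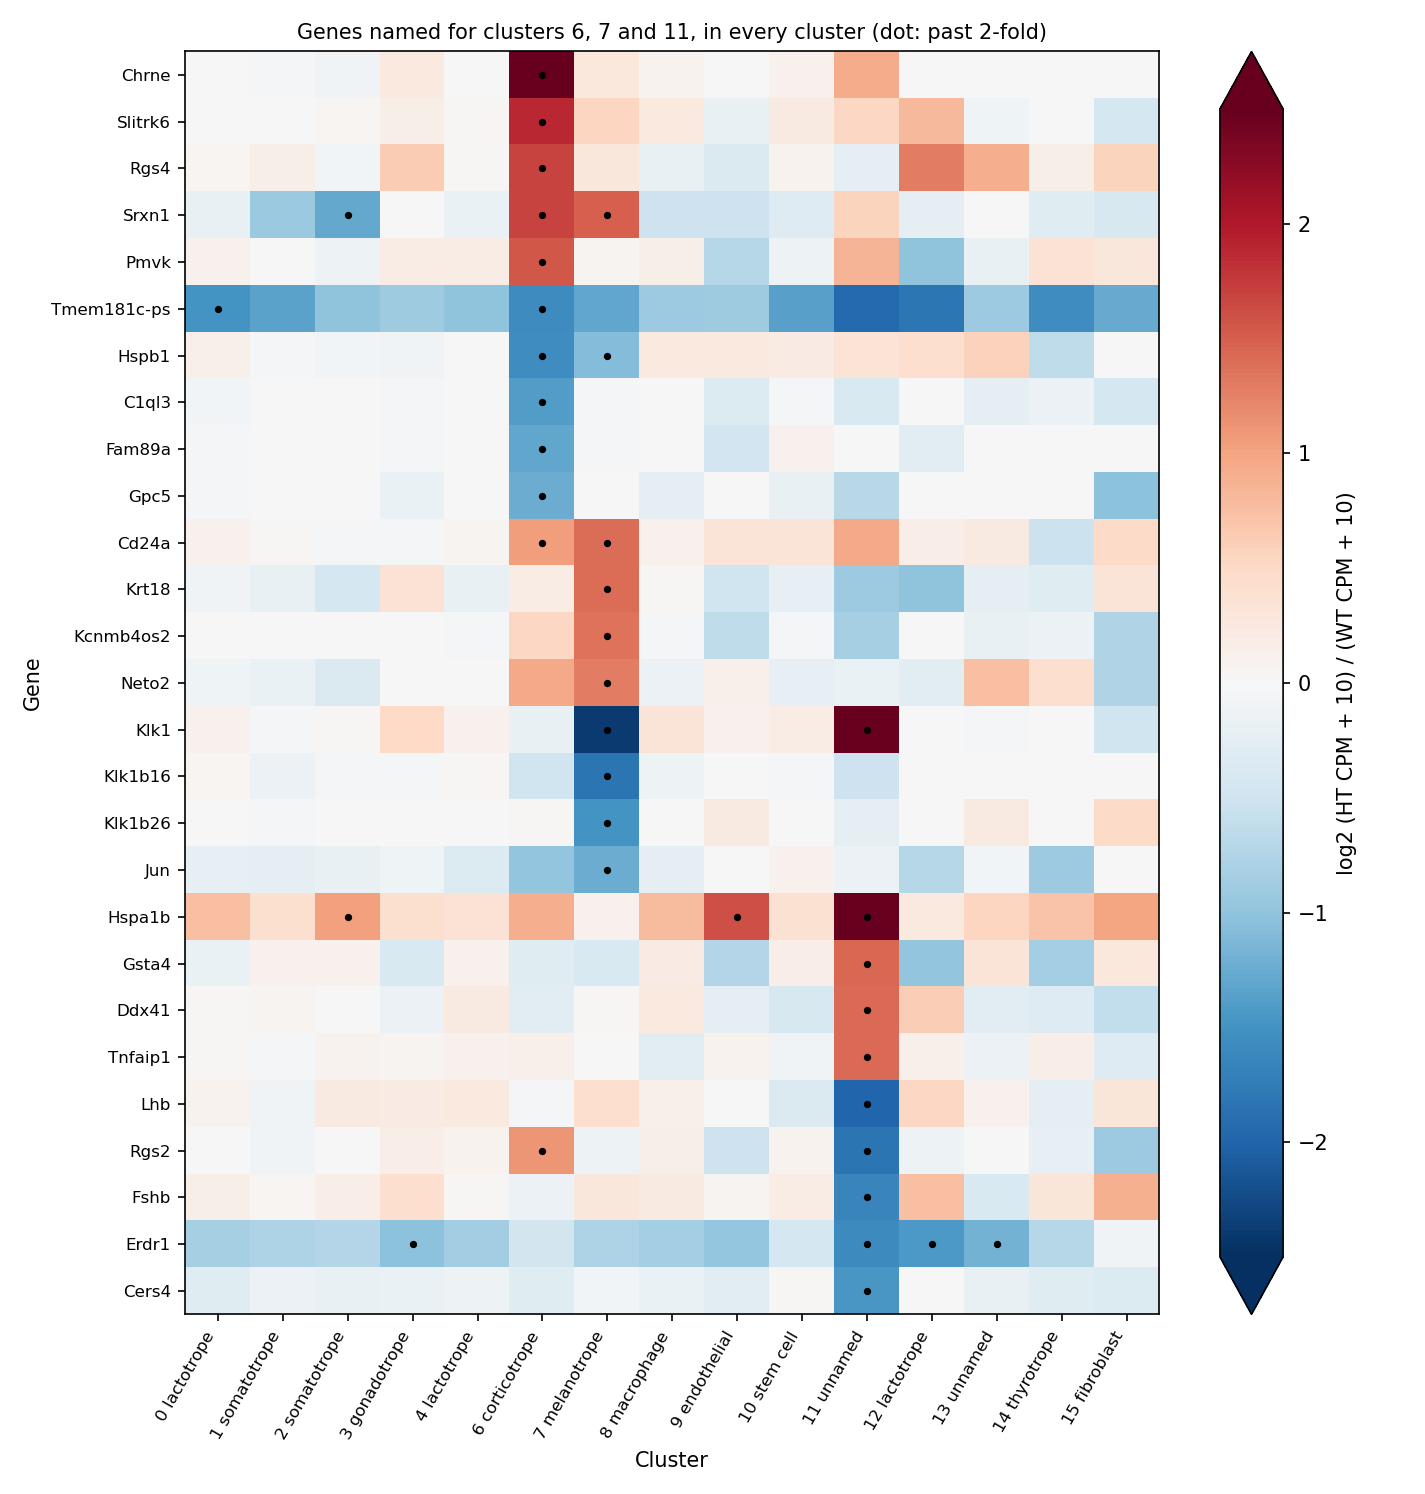
Log2 ratio of HT to WT, with 10 CPM added to each, of the genes named for clusters 6, 7 and 11 (rows) in each compared cluster (columns); red is higher and blue lower in HT, and dots mark genes past 2-fold. Srxn1 is red in clusters 6 and 7 and blue in cluster 2, and Klk1 is blue in cluster 7 and red in cluster 11.

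Srxn1 was past 2-fold higher in HT in clusters 6 and 7 and past 2-fold lower in cluster 2, and Cidea was past 2-fold higher in cluster 6 and lower in clusters 1 and 2. Srxn1 encodes sulfiredoxin, which restores over-oxidised peroxiredoxins. In cluster 6 it had 214 CPM in WT and 709 in HT, 3.32 times as high (3.14 to 3.50), and was found in 47.8% and 85.6% of cells. In cluster 2 it had 174 and 65.5 CPM, a ratio of 0.377 (0.359 to 0.396), and in cluster 1 it had 53.3 and 23.3, a ratio of 0.438 (0.388 to 0.494), short of 2-fold on the log2 scale used. In cluster 11 it had 55.0 and 86.0 CPM, a ratio of 1.56 (0.921 to 2.79). In clusters 0, 3 and 4 both libraries lay between 20.2 and 30.5 CPM. Cidea had 129 and 44.7 CPM in cluster 2, a ratio of 0.348 (0.328 to 0.369), and 104 and 40.7 in cluster 1, a ratio of 0.391 (0.358 to 0.428). In cluster 7 it had 88.1 and 181 CPM and in cluster 11 it had 79.5 and 112, both short of 2-fold. The difference between clusters was not tested. The other members of the antioxidant list compared in clusters 6 and 7 were short of 2-fold. In cluster 6 Srxn1 was the 1 gene past 2-fold of 12 antioxidant genes compared. The list median was -0.12 beside -0.06 for all genes, and the other 11 had ratios from -0.24 (Prdx1) to 0.12 (Txn1). In cluster 7 Srxn1 was the 1 gene past 2-fold of 13, with the others between -0.20 (Gclm) and 0.22 (Gpx3).

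The promoter of Srxn1 is shown because this gene passed 2-fold in opposite directions in clusters of different type. The stretch is RefSeq's on GRCm38.p6, chr2:152105274-152105573, plus strand, 250 bases before to 50 after the start site, and lies at the 5′ end of the gene. Capitals mark matches to the core of the antioxidant response element, the site of the redox-sensing factor Nrf2, searched on both strands as TGACNNNGC and TGAGNNNGC. The first form was searched first, and the second was added after the Srxn1 sequence had been read and TGAGTCAGC seen in it.
Srxn1: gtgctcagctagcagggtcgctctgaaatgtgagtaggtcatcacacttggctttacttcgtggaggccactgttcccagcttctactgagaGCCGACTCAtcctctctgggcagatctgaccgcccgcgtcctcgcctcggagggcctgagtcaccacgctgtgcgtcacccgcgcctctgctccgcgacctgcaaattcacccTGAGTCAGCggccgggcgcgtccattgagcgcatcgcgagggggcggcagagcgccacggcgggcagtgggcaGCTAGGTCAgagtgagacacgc
It holds 3 matches, GCCGACTCA on the minus strand, TGAGTCAGC on the plus strand and GCTAGGTCA on the minus strand, whose first bases lie at -158, -45 and 29 from the start site. The form searched first accounts for 1 of them, GCTAGGTCA. Of 32851 promoter windows of the same length, 4071 (12.4%) hold TGACNNNGC, 5798 (17.6%) hold TGAGNNNGC and 9128 (27.8%) hold either. The second form was chosen from this sequence, so its matches are a description only. A match describes the sequence and does not show a factor bound there.

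The lactotrope-like and somatotrope-like clusters had near-equal levels of their hormone genes. Prl had 138550 CPM in WT and 141430 in HT in cluster 0, and 517570 and 495690 in cluster 4. Gh had 680370 and 684320 CPM in cluster 1 and 522840 and 517690 in cluster 2. In cluster 0 the gene past 2-fold higher was Rbm3, which encodes a cold-inducible RNA-binding protein, with 61.1 and 150 CPM and 34.1% and 69.8% of cells. The pseudogene Tmem181c-ps was past 2-fold lower there, with 21.2 and 1.06 CPM. In cluster 4, Gal, the neuropeptide galanin, had 63.2 and 14.3 CPM, a ratio of 0.226 (0.185 to 0.275), while cluster 0, where it was highest, had 699 and 532. Pomc in cluster 4 had 1587 and 601 CPM. Both are below 10% of the level in their highest cluster. The 4 genes past 2-fold higher in cluster 1 were the hemoglobin genes Hbb-bs, Hba-a1, Hba-a2 and Hbb-bt. Hbb-bs had 31 counts from 19 WT cells and 5441 counts from 13 HT cells.

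Cluster 12, also lactotrope-like, had 86 WT and 83 HT cells and a lower Gh level in HT. Gh had 76998 CPM in WT and 25888 in HT, a ratio of 0.336 (0.330 to 0.343), while Prl had 424590 and 475420. The summed somatotrope markers were 78395 and 26858 CPM, with all 7 detected in each library, and which cells carried them was not tested. Gal had 300.2 and 133 CPM. Ddit3, a transcription factor of the unfolded protein response, had 130 and 41.8 CPM from 67 and 22 counts. Tcp1, a chaperonin subunit, had 83.3 and 18.997 CPM. Dnajb14, a co-chaperone, was the leading gene higher in HT, with 19.4 and 76.0 CPM from 10 and 40 counts.

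In the thyrotrope-like cluster 14 Creld2, Sdf2l1, Nr4a2 and Dusp1 were among the genes past 2-fold lower in HT, and the hormone gene Tshb fell short of it. Tshb, the thyrotropin beta subunit, had 65253 CPM in WT and 35710 in HT, a ratio of 0.547 (0.539 to 0.556), which is short of 2-fold on the log2 scale used. Creld2, an endoplasmic reticulum stress gene, had 156 and 38.3 CPM, a ratio of 0.246 (0.149 to 0.387), and Sdf2l1, a partner of the chaperone BiP, had 502 and 207. Of 18 unfolded protein response genes compared, 16 had ratios below 0 and 2 were past 2-fold lower, with a median of -0.54 beside 0.06 for all genes. Of 12 immediate early genes compared, all had ratios below 0 and 2 were past 2-fold lower, with a median of -0.77. The 2 were Nr4a2, a nuclear receptor, with 51 counts in WT and 2 in HT, and Dusp1, a phosphatase of MAP kinases, with 103 and 29.6 CPM. Higher in HT were the histone genes H2bu2, with 38.4 and 151 CPM, and H2aw, with 24.8 and 95.7. Stmn2, a microtubule regulator, had 65.4 and 174 CPM. Hbb-bs had 734 counts in WT, all from 1 cell, and 0 in HT, and the summed erythroid markers were 1198 and 3.48 CPM.

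In the gonadotrope-like cluster 3, Lhb had 12715 CPM in WT and 14751 in HT, Fshb 7521 and 10102, and Cga, the shared alpha subunit, 131180 and 166170. These levels were 1.16, 1.34 and 1.27 times as high in HT and none was past 2-fold. Sfi1, a centrosome protein gene, had 39.0 and 89.4 CPM, 2.29 times as high (1.96 to 2.69), and Erdr1 had 59.6 and 24.4. Prl had 5576 and 2396 CPM, with summed lactotrope markers of 5749 and 2531. The unfolded protein response list had all 18 members compared below 0, 0 of them past 2-fold. Its median was -0.27 beside -0.08 for all genes, of which 30.7% had log2 ratios above 0.

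In cluster 13, Cck and Cdkn1c were higher in HT, Cck from few cells. Cck had 0 counts in 87 WT cells and 134 counts in 5 of 139 HT cells, which is at least 21.3-fold higher against the floor of 3 counts. Cdkn1c, an inhibitor of cyclin-dependent kinases, had 128 and 428 CPM, 3.35 times as high (2.61 to 4.35), from 24 and 42 cells. Cck and Cdkn1c were also leading genes of cluster 11. Sirt2, a deacetylase, had 15.96 and 59.9 CPM. Lower in HT were Cited2, a transcriptional co-regulator, with 94.0 and 28.7 CPM, and Foxp2, a gonadotrope marker here, with 147 and 65.8. Nr5a1, the gonadotrope factor, had 94.0 and 88.6 CPM.

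In the stem cell-like cluster 10, Ifi27l2a and Sgk1 were higher in HT. Ifi27l2a, an interferon-induced gene, had 25.0 CPM in WT and 98.7 in HT, 3.94 times as high (2.78 to 5.74). All 10 interferon response genes compared had ratios above 0 and 1 was past 2-fold, with a median of 0.45 beside -0.01 for all genes. Isg15 had 41.3 and 79.1 CPM. Sgk1, a kinase induced by steroids, had 26.4 and 75.4 CPM, 2.86 times as high (2.01 to 4.15), and Nqo1, a quinone reductase, had 10.8 and 33.3. The stress gene Nupr1 had 67.0 and 21.2 CPM and Nr4a2 had 54.8 and 18.7. The stem cell factors Sox2 and Sox9 had 568 and 505 CPM and 403 and 355 CPM. Of 19 unfolded protein response genes compared, 17 had ratios below 0 and 0 were past 2-fold, with a median of -0.31. Pomc had 1981 and 878 CPM, with summed corticotrope markers of 2108 and 1001 CPM, and with 3 of 8 at 0 in HT.

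In the macrophage-like cluster 8 the chemokine genes Ccl8 and Cxcl9 led the genes higher in HT. Ccl8 had 22.4 and 162 CPM, from 25 counts in 8 cells and 264 counts in 19 cells. Cxcl9, induced by interferon gamma, had 43.1 and 179 CPM, from 2 and 7 cells. The chemokine and cytokine list, which holds neither, had 9 of 12 members below 0 and 0 past 2-fold, with a median of -0.14 and sums of 8197 and 7037 CPM. Ciita, the transactivator of MHC class II genes, had 43.1 and 114 CPM in 12.4% and 27.1% of cells, 2.64 times as high (1.92 to 3.71). The MHC class II list had 7 members compared and a median of 0.08, with Ciita as the 1 member past 2-fold. Of 13 heat shock genes compared, 12 had ratios above 0 and 1 was past 2-fold higher, with a median of 0.55 beside 0.01 for all genes. That gene was Dnaja1, a co-chaperone of Hsp70, with 148 and 315 CPM. Meg3, a maternally expressed long non-coding RNA of endocrine cells, had 1096 and 292 CPM, a ratio of 0.266 (0.239 to 0.296), in 24.1% and 23.9% of cells. The summed somatotrope markers were 59345 CPM in WT and 34830 in HT in this cluster, with all 7 detected, and their part in the Meg3 value was not tested.

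The endothelial-like cluster 9 had more Hsp70-family transcripts and fewer endocrine transcripts in HT. Hspa1a had 181 CPM in WT and 823 in HT, 4.55 times as high (3.80 to 5.49), and was found in 26.6% and 68.0% of cells. Its near-identical neighbour Hspa1b had 182 and 579 CPM, and reads may be split between them. Hsph1 had 76.3 and 213 CPM, Dnaja1 328 and 792, and Hspa8 495 and 1089. All 14 heat shock genes compared had ratios above 0, beside 60.7% of all genes, and 5 were past 2-fold. Their median was 0.50 beside 0.10 for all genes. Ednrb, the endothelin receptor B, had 66.9 and 193 CPM, 2.89 times as high (2.12 to 4.004), and Hes1, a Notch target, had 126 and 297. Of 7 cell cycle genes compared, all were above 0 and 3 were past 2-fold, with a median of 0.98. Mki67 rested on 9 counts in 3 cells and 54 counts in 6 cells.

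Lower in HT in cluster 9 were Prl, with 38061 and 9713 CPM, Gh, with 94501 and 39604, and Pomc, with 3212 and 1295. Chga, a secretory granule protein, had 274 and 82.8 CPM, and all 8 secretory granule genes compared were below 0, with 3 past 2-fold and a median of -0.88. Cadm1, an adhesion protein, had 79.0 and 14.8 CPM. Cd74, an MHC class II partner, had 313 and 89.3 CPM in 25.1% and 5.69% of cells. The summed lactotrope markers were 38378 and 9819 CPM, the somatotrope markers 95268 and 39976, and the macrophage markers 83.0 and 125. The endothelial markers summed to 7856 and 9994 CPM with all 8 above 0. Hbb-bs had 570 and 9386 CPM from 3 and 8 cells. Whether the endocrine transcripts account for the lower genes was not tested.

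The fibroblast-like cluster 15 had 57 WT and 99 HT cells, and Pomc and Prl were lower in HT. Pomc had 24757 CPM in WT and 2078 in HT, a ratio of 0.0839 (0.0786 to 0.0896), and Prl had 33303 and 5715. The summed corticotrope markers were 24938 and 2126 CPM, with 0 of 8 at 0 counts in WT and 5 of 8 in HT, while the somatotrope markers were 29421 and 31811 and the thyrotrope markers 1738 and 1948. The hormone list had 3 of 5 members above 0, with a median of 0.10. Their source and their part in the other values were not tested. Ccl2, a monocyte chemokine, had 292 and 7.89 CPM, a ratio of 0.0270 (0.00720 to 0.0718), from 9 WT and 2 HT cells. Icam1, an adhesion molecule, had 174 and 51.3 CPM, and Cxcl1, a neutrophil chemokine, had 108 and 37.5. Meg3 had 1050 and 219 CPM and Peg3, a paternally expressed gene, had 313 and 63.2. Higher in HT were Clec3b, a plasminogen-binding protein, with 66.0 and 330 CPM, and Crabp1, which binds retinoic acid, with 163 and 616. The smooth muscle protein gene Tagln had 233 and 681 CPM, Aqp1, a water channel, had 13.9 and 98.7, and Fbn1, a microfibril protein, had 62.6 and 158. All 7 fibroblast markers were above 0, 0 of them past 2-fold, with a median of 0.38 beside 0.07 for all genes.

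Some genes differed the same way across clusters of unlike type. At least 3 clusters had the same direction past 2-fold for 5 genes higher and 7 genes lower in HT. Rbm3 was past 2-fold higher in 8 clusters. In all 15 its log2 ratio was above 0 and the interval of its plain ratio excluded 1. In cluster 12 Rbm3 was short of the limit of 50 counts. Its WT levels ran from 25.2 to 68.3 CPM and its HT levels from 50.5 to 181. Hspa1a was past 2-fold higher in clusters 2, 6, 9, 10, 11 and 15 and above 0 in all 15, with log2 ratios of 0.32 to 2.13. Sfi1 was past 2-fold in clusters 3, 8, 9 and 10 and above 0 in all 15, with log2 ratios of 0.61 to 1.82. Hspa1b was past 2-fold in clusters 2, 9 and 11, and C2cd4b in clusters 6, 11 and 12. C2cd4b had a log2 ratio of -0.43 in each of clusters 8 and 10.

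Among genes lower in HT, Gm47283, a predicted gene, was past 2-fold in 10 clusters and below 0 in all 15, with WT levels of 111 to 434 CPM and HT levels of 47.5 to 212. Erdr1 was past 2-fold in clusters 3, 11, 12 and 13 and below 0 in all 15, with log2 ratios of -1.60 to -0.08. Gal was past 2-fold in clusters 4, 9, 10, 12 and 14 and below 0 in all 15. Gal met the count and CPM limits only in clusters 0, 4, 8, 9, 10, 12 and 14. Its WT levels ran from 9.64 to 699 CPM. Prl was past 2-fold lower in clusters 3, 7, 9 and 15, Pomc in 4, 9, 10 and 15, and Gh in 9, 12 and 14. These 3 hormone genes stayed short of 2-fold in the clusters where each was highest. Nnat, an imprinted gene of endocrine cells, was past 2-fold lower in clusters 9, 10 and 15. A value that moves the same way in all clusters of 1 library pair cannot be told apart from a difference between the libraries or mice. Rbm3, Hspa1a, Hspa1b, Sfi1, Gm47283, Erdr1 and Gal kept their side of 0 in all 15 clusters under each of the 4 scalings tried. The 15 include clusters where a gene was short of the count or the CPM limit, as Hspa1b was in clusters 1, 12 and 14.

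**Figure D4:**
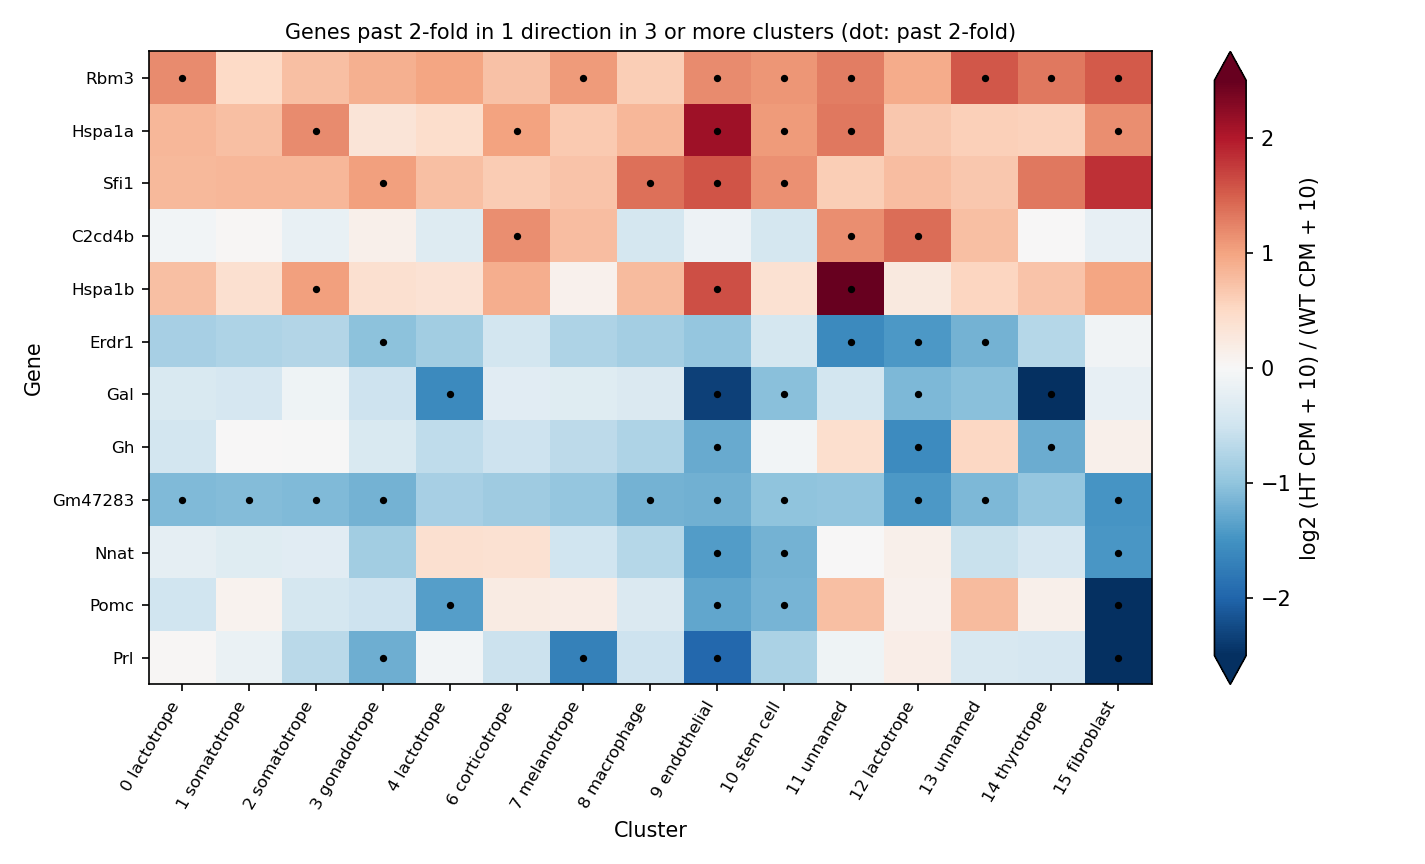
Log2 ratio of HT to WT, with 10 CPM added to each, of the 12 genes past 2-fold in the same direction in at least 3 clusters (rows) in each compared cluster (columns), with dots where past 2-fold. Rbm3, Hspa1a, Hspa1b and Sfi1 are red in all 15 clusters and Gm47283, Erdr1 and Gal are blue in all 15. Clusters where a gene was short of the count or the CPM limit are coloured too.

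Gene lists were also read over all 15 clusters, in which 0.393% of 73706 gene and cluster pairs were past 2-fold higher and 0.374% lower. The median of all genes was below 0 in clusters 0 to 3, 6, 7 and 10 to 13, and above 0 in the others. The immediate early list had a median below 0 in 14 of 15 clusters, from -0.77 to 0.04. Of 250 member and cluster pairs, 0 were past 2-fold higher and 7 lower (2.80%). This list was below 0 in 12 clusters with TMM and in 13 with the median ratio. The unfolded protein response list was below 0 in 10 clusters, from -0.54 to 0.12, with 1 of 269 pairs past 2-fold higher (0.372%) and 5 lower (1.86%); it was below 0 in 8 clusters with TMM and in 11 with the median ratio. The heat shock list was above 0 in 11 clusters, from -0.05 to 0.55. Of 191 pairs, 14 were past 2-fold higher (7.33%) and 2 lower (1.05%). Hspa1a gave 6 of the 14 and its near-identical neighbour Hspa1b gave 3. With TMM the list was above 0 in all 15 clusters, and the median of all genes was above 0 in each but cluster 14. Ribosomal protein genes were above 0 in 13 clusters, with medians of -0.16 to 0.28 and 0 past 2-fold. Nuclear genes of the respiratory chain were above 0 in 13 clusters, from -0.06 to 0.15, and in 11 with the authors' scaled counts. Members of a list share libraries and clusters, so these pairs are not independent. In cluster 12 only 3 of 5 members of the cold-inducible list were compared, Srsf5, Ccnl1 and Hnrnpdl. All 3 were below 0, with a median of -0.81. Rbm3 and Cirbp were not compared there, and Rbm3 was higher in HT. The prohormone processing list had 6 of 7 members above 0 in cluster 12, with a median of 0.47. In cluster 11 the 5 cold-inducible members had a median of 0.46. The median of all genes compared lay between -0.08 (cluster 3) and 0.10 (cluster 9). The POMC lineage factor list, which holds Tbx19, had medians of -0.01, 0.01 and 0.07 in clusters 6, 7 and 11, with 0 members past 2-fold in these 3. In cluster 6, Nr4a1 had the highest ratio in that list, with 216 CPM in WT and 353 in HT, and Nr3c1, the glucocorticoid receptor, the lowest, with a log2 ratio of -0.54.

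**Figure D5:**
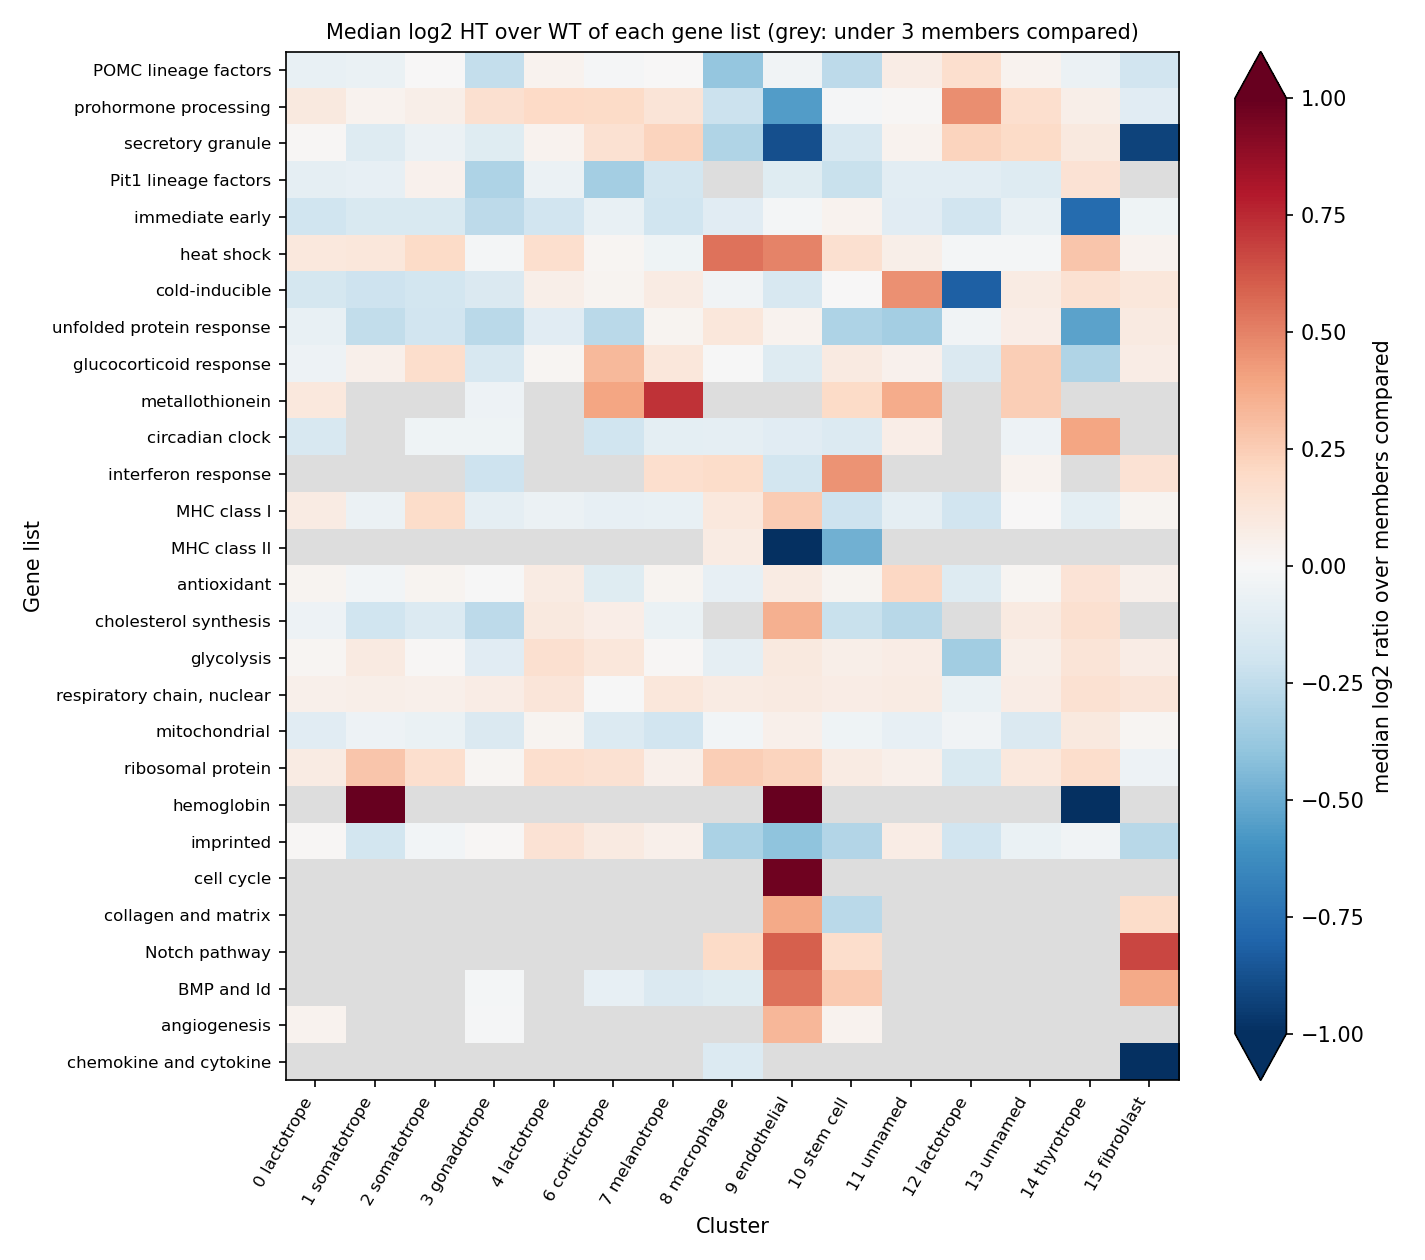
Median log2 ratio of HT to WT over the members compared of each gene list (rows) in each cluster (columns), with grey where fewer than 3 members could be compared. Unfolded protein response and immediate early genes are blue in cluster 14, heat shock genes are red in clusters 8 and 9, and secretory granule genes are blue in clusters 9 and 15.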

How the data were processed

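Pituitary cells of 1 TpitWT and 1 TpitHT library were profiled by single-cell RNA sequencing. Tools listed without role or order, per the submitters' processing notes, are Seurat 3.1, Cell Ranger 5 and DESeq2, and the builds listed are mm10 and GRCm38. Per the file headers, the authors deposited counts of each gene, added up within a library and cluster. A second deposited table holds a signal, the same counts times 1 factor per library and cluster. Whether a count is a molecule or a read is not given in the sources used here. The authors also deposited, per the file headers, the number of cells with a count of each gene and the cluster of each cell. The 210 WT and HT columns of means and proportions were not used, nor was the KO library.

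Rows of 1 symbol were added (110 of 55403). CPM used the cluster's total. Intervals are exact Poisson for CPM, exact conditional binomial for ratios and Clopper-Pearson for shares; a count of 0 allows 3 counts. They cover counting error only. No statistical test was possible with 1 library per genotype. Cell-level counts were not used, so doublets were not treated and cells were not thinned to equal depth. Total depth was 107289047 counts in WT and 152382545 in HT.

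The comparison, gene lists and markers were chosen with earlier results of these data known. The rule for naming clusters was set after their values were seen, in 3 steps: at least 3 markers had to be raised, and either the leading gene was a marker or 50% or more of the list was raised. Up to 5 genes each way per cluster were named by size of the log2 ratio, leaving out predicted, hemoglobin, immunoglobulin, ribosomal and mitochondrial genes, Xist, Tsix, Y-linked genes and genes below 10% of their highest cluster in both libraries. Other genes, list members apart, and the Srxn1 promoter were chosen after their values were seen. Promoter sequence came from RefSeq, GRCm38.p6. Alternatives covered scaling, pseudocount, filter, cell base and cluster size. The fold calls were tested on simulated Poisson counts with changes larger than 2-fold, which hold no clustering of counts in cells. The pass limit of that simulation was lowered after a cluster fell short of it. It does not show how reliable a 2-fold difference is in these libraries. Tools were Python 3.11.15, numpy 2.4.6, pandas 2.3.3, scipy 1.17.1, matplotlib 3.10.9, R 4.3.3 and edgeR 4.0.16 (TMM only). Results for 2 genes are not reported here.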

Additional observations from a re-analysis of the deposited data

Results flagged for a closer look

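For 13 genes HT was past 2-fold higher in 1 cluster and past 2-fold lower in another. Each value is the log2 ratio in the first cluster minus that in the second, and none of these differences was tested. The genes listed here from Srxn1 to Tent5a had a POMC cluster (6, 7 or 11) on at least 1 side. Srxn1 differed by 2.97 and Cidea by 2.54 between clusters 6 and 2. Klk1 differed by 5.00 between clusters 11 and 7, and Rgs2 by 2.94 between clusters 6 and 11. Cited2 differed by 2.55 between clusters 11 and 13, Hmox2 by 2.30 between clusters 11 and 14, Serpini1 by 2.66 between clusters 11 and 9, and Tent5a by 2.14 between clusters 7 and 15. Cd74 differed by 5.22 and Gstm5 by 2.79 between clusters 15 and 9. The hemoglobin genes differed most, Hbb-bs by 11.03 and Hba-a1 by 8.35 between clusters 1 and 14, and Hba-a2 by 7.27 between clusters 9 and 14. Hbb-bs in cluster 14 rested on 1 WT cell.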

How the results depend on the processing

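No paired analysis was possible because only 1 library stands for either genotype. Of 1150 values of named genes under alternative settings, 1060 stayed past 2-fold the same way. Another 90 fell short of 2-fold (81 of them with 50 CPM added) and 0 reversed. The filter settings leave a ratio unchanged and adding 1 CPM can only enlarge it, so none of their values could fall short. With TMM 131 of 136 values stayed past 2-fold, and with the median ratio 134 of 137. The authors' scaled counts kept 136 of 137, and totals without hormone, mitochondrial and hemoglobin genes kept all 137. Genes past 2-fold numbered 6, 5 and 4 in clusters 1, 2 and 4. They numbered 16, 13 and 10 with totals that left out hormone, mitochondrial and hemoglobin genes, 18, 13 and 10 with the authors' scaled counts, and 2, 3 and 0 without genes below 10% of their highest cluster. Adding 1 CPM in place of 10 gave 6, 11, 11, 10 and 11 genes in clusters 0 to 4, 88 and 65 in clusters 6 and 7, and 120, 230, 105, 161, 123 and 122 in clusters 8, 9, 10, 11, 13 and 14. Adding 50 CPM gave 0, 2, 0, 1 and 1 in clusters 0 to 4, 8 and 4 in clusters 6 and 7, and 3, 26, 2, 11, 2, 3, 10 and 30 in clusters 8 to 15. With no filter clusters 8 to 15 had 54, 319, 36, 857, 600, 230, 388 and 1444, and with at least 200 counts they had 10, 34, 8, 9, 2, 3, 7 and 12. Both filters also change how many genes are compared. The 12 genes past 2-fold one way in at least 3 clusters became 19 with 1 CPM added, 5 with 50 CPM, 28 with no filter, 6 without genes below 10% of their highest cluster and 7 over clusters of at least 100 cells.

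The log2 ratio of Tbx19 in cluster 6, -0.47, was -0.38 with TMM, -0.36 with 50 CPM added and -0.19 as mean counts per cell, and in cluster 7, -0.11, it reversed to 0.33 per cell. For Pomc the ratio in cluster 6, 0.20, was 0.31 with TMM, 0.28 with the median ratio, 0.22 without hormone genes in the total, 0.18 with the authors' scaled counts and 0.53 per cell. In cluster 7, 0.19, it was 0.32, 0.25, 0.21, 0.16 and 0.64 in the same order. In cluster 11, 0.75, it was 0.86 with TMM and 1.05 per cell. Of 604 list medians under alternatives, 396 stayed close, 199 moved and 9 reversed. Without genes below 10% of their highest cluster, the corticotrope median in cluster 10 went from -0.64 to 0.20, the somatotrope median in cluster 7 from -0.66 to 0.22, and the lactotrope medians in clusters 6 and 10 from -0.34 to 0.96 and from -0.68 to 0.18. With at least 200 counts the cold-inducible median in cluster 11 went from 0.46 to -0.34, the circadian clock median in cluster 14 from 0.40 to -0.28 and the chemokine median in cluster 15 from -1.31 to 0.47. With no filter the cholesterol synthesis median in cluster 9 went from 0.35 to -0.18 and the chemokine median in cluster 15 to 0.47. The alternatives change which genes or totals enter, and other causes were not tested.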
